A study of Mus musculus with 10 samples.

Results

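Nr3c1, Fkbp5, Tsc22d3, Sgk1 and Anxa1 are the glucocorticoid receptor gene and 4 genes that the receptor is known to switch on. They were taken by name from a deposited table of 13809 genes, so the rule itself used no measured value, although it was written with earlier results of these data known, and all 5 were in the table and were tested. The table comes from RNA sequencing of 10 libraries of bone marrow macrophages, and the donors were 12-week C57BL/6 mice. Resident macrophages, labelled CD163+, were the cells that stayed on a magnetic column without staining, and no genetic modification is given for any group. Bone marrow derived macrophages (BMDM) were grown from the column's flow-through in medium with 20% L929 cell supernatant, for 6 days (growth protocol) or 7 days (titles). Each origin was left untreated or given lipopolysaccharide (LPS), a bacterial cell wall component sensed by Toll-like receptor 4, at 1 µg/ml for 4 h. There were 3 resident libraries and 2 BMDM libraries per treatment. The labels name no glucocorticoid treatment and do not give the steroid content of the serum or supernatant. Origin and culture cannot be told apart, because all BMDM were cultured for days and the resident cells were not described as grown. Nothing in the labels says whether libraries of a group came from separate animals, so each p-value measures only the spread between these libraries.

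Glucocorticoids are steroid hormones that enter cells freely and bind the receptor encoded by Nr3c1, which waits in the cytoplasm in a complex with heat shock proteins and cochaperones. The bound receptor moves to the nucleus, where it switches genes on through palindromic response elements and holds back inflammatory genes driven by NF-kB and AP-1. In macrophages it is known for damping the response to bacterial products. Fkbp5 encodes a cochaperone that lowers the receptor's affinity for hormone and so closes a feedback loop. Tsc22d3 encodes GILZ, a leucine zipper protein that binds NF-kB and AP-1 subunits. Sgk1 encodes a kinase that is switched on downstream of mTOR complex 2 and regulates ion transport and FOXO factors. Anxa1 encodes annexin A1, a calcium-dependent phospholipid-binding protein that acts through formyl peptide receptors to limit inflammation.

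The response element that gives the receptor its best known binding letters was looked for in the 250 bases before each start site that RefSeq lists for these genes (build GRCm38.p6). The full 15-base form searched was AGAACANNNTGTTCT, which is its own reverse complement, and its 6-base arm AGAACA was searched on both strands, so every full element also counts as arms. Of the 4 genes searched (Nr3c1 was not searched), with 11 windows between them, Sgk1 held the full element in 1 window. That window is shown because Sgk1 is a member that fell with LPS below and because the element is rare: 3 of 32851 windows over all genes held it, or 0.00913%. The window lies on the plus strand at chr10:21993640-21993889, inside introns of longer Sgk1 transcripts and before an alternative start, and the capitals mark the element from 189 to 175 bases before that start.
Sgk1: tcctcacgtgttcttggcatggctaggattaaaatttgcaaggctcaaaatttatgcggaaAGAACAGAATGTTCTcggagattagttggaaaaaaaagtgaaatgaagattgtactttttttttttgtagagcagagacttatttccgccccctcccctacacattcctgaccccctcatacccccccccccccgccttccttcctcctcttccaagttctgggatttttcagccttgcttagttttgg
The other member that fell with LPS in BMDM, Tsc22d3, held only the 6-base arm, in 1 of its windows. The 30 bases around it lie on the minus strand at chrX:140600690-140600719, and the capitals mark the arm, which starts 185 bases before the start site.
Tsc22d3: ccgcattcgacaTGTTCTaagttctgagac
The arm alone was found in 16.1% of all windows, so its presence says little by itself. Neither the Fkbp5 nor the Anxa1 window held these letters, and among 26 of the listed glucocorticoid-induced genes described below, with 35 windows, none held the full element. A match in letters is a description and not a binding site, and a window without them says nothing about binding elsewhere.

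Recovered gene reads numbered 27.1 to 37.7 M in each library, and values were analysed as the authors normalized them (called normalized reads here), as log2 of the value plus 1. The 5 genes were covered by 81 reads or more in every library. The macrophage markers Adgre1, Csf1r and Cd68 were present in every library, at 10457 to 18056 normalized reads for Adgre1 in untreated resident cells and 25467 to 27867 in untreated BMDM. Resident libraries also carried neutrophil, erythroid and B-lineage markers at far higher levels than BMDM, but not every marker sum went that way. The T and NK cell sum was higher in untreated BMDM (11457.8 to 11459.5) than in untreated resident libraries (3101 to 4242). By gene, 7 of its 9 tested markers were called higher in untreated resident cells and 2 lower. The dendritic cell sum was higher in LPS-treated BMDM (16283 to 17540) than in LPS-treated resident libraries (10648.5 to 12592). The summed level of 15 neutrophil genes was 239851 to 423624 in untreated and 399635 to 438873 in LPS-treated resident libraries, against 2614 to 2738 and 7502 to 7923 in BMDM, where Ly6g was at the table's floor of 1. Replicate 1 of both resident groups carried Y-linked transcripts (Ddx3y at 1856 and 1975) that were at the floor in the other 8 libraries, so results that lean on replicate 1 are also given without it. Fewer cells of a type and less RNA per cell cannot be told apart in such bulk libraries.

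A gene was called changed at a Benjamini-Hochberg adjusted p under 0.05 in limma, fitted to all 13755 genes with at least 10 normalized reads in 2 libraries. With LPS in resident cells 1 of the 5 genes was called, a fall, where 12.9% of all tested genes were called (7.36% rose and 5.57% fell). With LPS in BMDM 4 of 5 were called, with 2 rises and 2 falls, beside 57.8% of all genes (28.3% rose and 29.5% fell). Between untreated resident cells and BMDM 1 of 5 was higher and 1 lower in resident cells, beside 71.9% of all genes (39.2% higher and 32.6% lower). Between LPS-treated cells 2 were higher and 2 lower, beside 71.3% of all genes (36.7% and 34.5%). The LPS response itself differed between origins for 2 of 5, Nr3c1 and Tsc22d3, beside 41.8% of all genes (19% with a higher and 22.8% with a lower response in resident cells). To order the 4 groups of a gene, untreated resident cells were also set against LPS-treated BMDM, which separated 73.2% of all genes, and LPS-treated resident cells against untreated BMDM, which separated 75.2%. With 5 genes these shares are a description, and the paragraphs below turn on the size and direction of each gene's change. The comparisons by origin and by LPS share libraries and are not independent of each other.

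**Figure D1:**
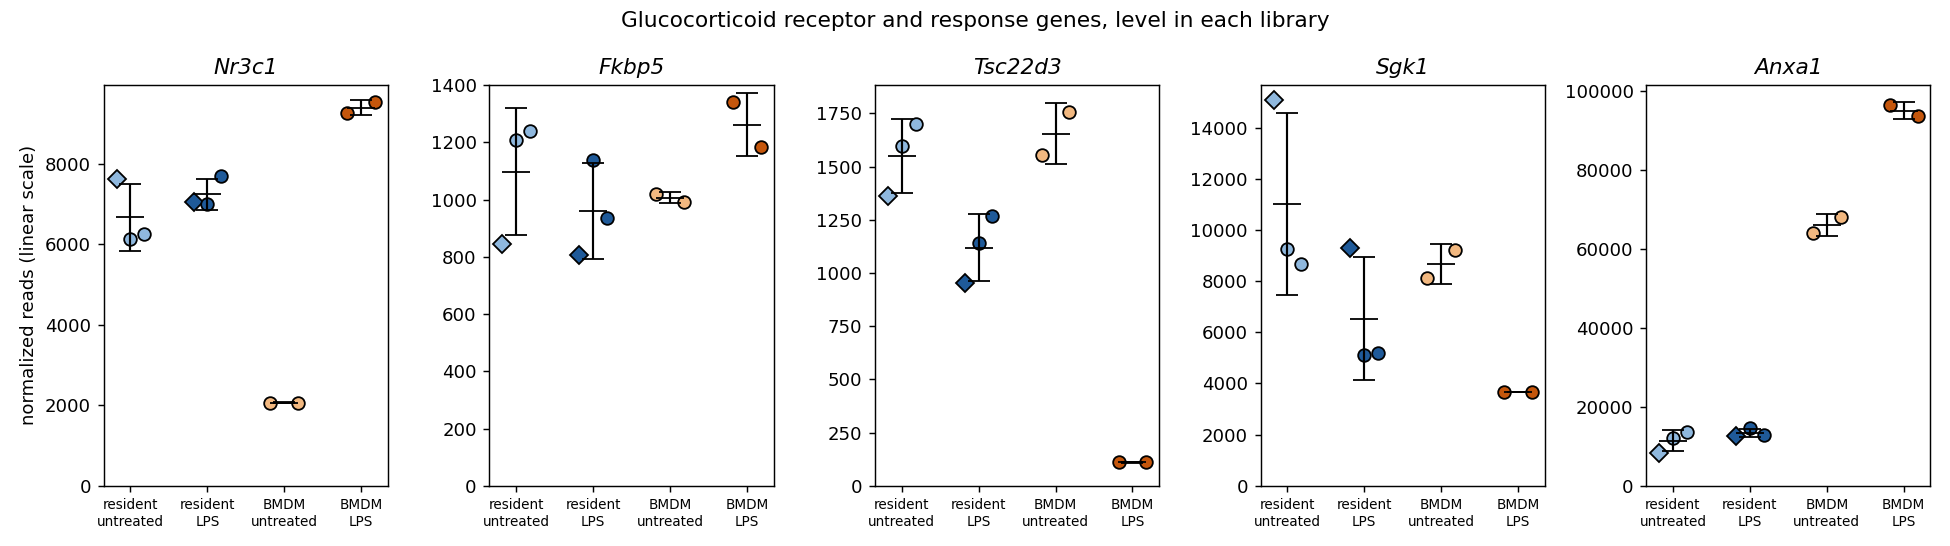
Normalized reads of the 5 genes in each of the 10 libraries on linear axes from 0, with 1 point per library, diamonds for the resident libraries with Y-linked transcripts, long bars for group means and capped bars for the SD. Nr3c1 is lowest in untreated BMDM, Tsc22d3 is near 111 in BMDM with LPS and at 952 or more elsewhere, and Anxa1 is higher in every BMDM library than in any resident library.

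The receptor gene Nr3c1 answered LPS in BMDM and was already high in resident cells. Its level in untreated BMDM was 2048 and 2067 normalized reads in the 2 libraries, and in LPS-treated BMDM it was 9261 and 9523. Untreated resident cells had 7619, 6119 and 6258, and LPS-treated resident cells had 7049.8, 6989 and 7689. Both untreated BMDM libraries lay far below all others, and both resident groups overlapped. In BMDM the gene rose 4.56-fold (log2 change 2.19 ± 0.11 SE, adjusted p = 4.83e-08 by limma), a rise exceeded by 7.57% of tested genes. In resident cells the change was 0.13 ± 0.09, with a 95% interval from -0.07 to 0.32 (adjusted p = 0.417). Without untreated resident replicate 1 that value became 0.23 (adjusted p = 0.0419), and with both Y-linked libraries left out 0.24 (adjusted p = 0.0243). The response differed between origins by -2.06 ± 0.14 (resident minus BMDM, adjusted p = 1.24e-06).

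Set against each other, the groups of Nr3c1 fell in the order BMDM with LPS (9392 ± 185, mean ± SD, n = 2), resident with LPS (7242 ± 388, n = 3), resident untreated (6666 ± 829, n = 3) and BMDM untreated (2058 ± 13.5, n = 2). The middle pair did not separate. Untreated resident cells had 3.24-fold more than untreated BMDM (log2 difference 1.69 ± 0.10, adjusted p = 1.68e-07). The neutrophil sums given above also differed between these groups, and their part in the Nr3c1 difference was not tested. With LPS the order turned, and resident cells were lower by a log2 difference of -0.38 ± 0.10 (adjusted p = 0.00621). That smaller difference was not called when values were quantile normalized (-0.05) or scaled to equal library totals (-0.05).

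Tsc22d3, the gene of the anti-inflammatory leucine zipper GILZ, had the largest change of the 5. Untreated BMDM had 1553 and 1757 normalized reads, and LPS-treated BMDM had 112 and 109.7. Untreated resident cells had 1360.05, 1595 and 1699, and LPS-treated resident cells had 952, 1139 and 1267. Both untreated groups lay in the same range, LPS-treated resident cells lay just under it without overlap, and LPS-treated BMDM lay far below every other library. The fall in BMDM was 14.9-fold (log2 change -3.88 ± 0.15, adjusted p = 6.49e-09), and 0.494% of the tested genes fell by more. This level rests on 109 and 81 recovered reads.

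In resident cells Tsc22d3 also fell, to 0.721 of the untreated mean (log2 change -0.47 ± 0.12, adjusted p = 0.0284). This smaller fall sat near the threshold. The summed level of 5 monocyte markers was higher in every LPS-treated resident library (38704 to 47432) than in the untreated ones (20782 to 38008). That of the 12 macrophage markers overlapped, at 187656 to 276919 with LPS against 212676 to 331795. LPS-treated replicates 2 and 3 (194816 and 187656) lay below every untreated library. Of the macrophage markers 3 were called lower and 0 higher (median log2 change -0.36), beside 5.57% and 7.36% of all genes. Of the monocyte markers 2 were called lower and 0 higher. The part of both sums in the resident LPS changes was not tested. The adjusted p of Tsc22d3 was 0.0791 without untreated resident replicate 2, 0.0924 without replicate 3, 0.0652 without LPS-treated resident replicate 1 and 0.0722 without replicate 2, with changes between -0.49 and -0.36. Leaving out either LPS-treated BMDM library left the change at -0.47 and gave 0.0520 and 0.0519. The 2 responses differed by 3.41 ± 0.19 (adjusted p = 2.91e-07), the 79th highest difference among 13755 genes. Untreated levels of both origins did not separate (log2 difference -0.10, 95% interval -0.39 to 0.20, adjusted p = 0.532), whereas with LPS resident cells held 10.1-fold more (3.31 ± 0.13, adjusted p = 1.75e-08).

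Sgk1, the kinase gene, was lower with LPS in BMDM and varied most among resident libraries. The untreated BMDM libraries had 8131 and 9229 normalized reads and the LPS-treated ones 3674 and 3657. Untreated resident cells had 15099, 9250.2 and 8653, and LPS-treated resident cells had 9301, 5099 and 5192. BMDM groups did not overlap, while the resident groups did, because LPS-treated replicate 1 was as high as untreated replicates 2 and 3. In BMDM Sgk1 fell 2.37-fold (log2 change -1.24 ± 0.31, adjusted p = 0.00548).

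The resident change of Sgk1 was -0.76 ± 0.25, with a 95% interval from -1.32 to -0.21, and was not called (adjusted p = 0.0740). Replicate 1, the library with Y-linked transcripts, held 1.69 times the mean of the other untreated replicates and 1.81 times the mean of the other LPS-treated ones. It also had the highest macrophage marker sum of its group (331795 untreated and 276919 with LPS). Its sum of 6 megakaryocyte and platelet markers was the lowest (13987 and 18381). The part of these in the Sgk1 values was not tested. With a term for the libraries with Y-linked transcripts the change stayed at -0.76 (adjusted p = 2.6e-05), and without both of them it was -0.80 (adjusted p = 0.000279). Without LPS-treated replicate 1 alone it was -1.05 (adjusted p = 0.0127). The responses of the origins did not separate (0.48, 95% interval -0.40 to 1.36, adjusted p = 0.372). They did in 4 of the 11 other settings that fit this comparison, among them the Y-linked term (0.48, adjusted p = 0.00172). Over those 11 settings the difference ran from 0.44 to 1.05. Group means were 11001 ± 3562 (n = 3) in untreated resident cells, 8680.2 ± 776 (n = 2) in untreated BMDM, 6530.5 ± 2399 (n = 3) in LPS-treated resident cells and 3666 ± 11.8 (n = 2) in LPS-treated BMDM. Of the neighbours in this order only the last pair separated (log2 difference 0.77 ± 0.28, adjusted p = 0.0293). That call was lost without LPS-treated resident replicate 1 (0.49, adjusted p = 0.0729) and without either LPS-treated BMDM library (0.78 and 0.77, adjusted p = 0.105 and 0.108).

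Anxa1, which encodes annexin A1, separated the origins and was the most abundant of the 5 per length in every group. Untreated BMDM had 64129 and 67983 normalized reads and LPS-treated BMDM had 96524 and 93624. Untreated resident cells had 8409, 12172 and 13739.6, and LPS-treated resident cells had 12716, 14594 and 12820.4. Every BMDM library lay above every resident library, and the resident groups overlapped. Untreated BMDM had 5.77-fold more than untreated resident cells (log2 difference, resident minus BMDM, -2.56 ± 0.18, adjusted p = 6.85e-07), and with LPS 7.11-fold more (-2.83 ± 0.18, adjusted p = 3.74e-07). Scaled per kb of exon, the untreated means were 22692 in BMDM and 3930 in resident cells. The summed level of 12 macrophage markers was also higher in BMDM, at 596864 to 616776 in untreated libraries against 212676 to 331795 in resident ones. By gene the list was mixed. In untreated resident cells 3 of the 12 were called higher and 6 lower, beside 39.2% and 32.6% of all genes (median log2 difference -0.26). The part of these markers in the Anxa1 difference was not tested. Untreated resident replicate 1 had both the lowest Anxa1 and the lowest neutrophil sum (239851) of the resident libraries, and the part of that was not tested either.

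With LPS in BMDM, Anxa1 rose 1.44-fold on the deposited scale (log2 change 0.53 ± 0.20, adjusted p = 0.0427), but it was lower with LPS after quantile normalization (-0.58) and after scaling to equal library totals (-0.09). Equal totals moved the median of all genes in that comparison to -0.64, so Anxa1 lay above the median gene there, but below it after quantile normalization, where that median was -0.21. Besides, the call was lost on leaving out any library but untreated resident replicates 1 and 3. Adjusted p was then 0.0509 to 0.0583 for the other resident libraries and 0.101 to 0.156 for the 4 BMDM libraries, with changes from 0.48 to 0.57. In resident cells the change was 0.25 ± 0.16 (95% interval -0.11 to 0.61, adjusted p = 0.363). The difference of responses was -0.27 (95% interval -0.84 to 0.30, adjusted p = 0.432), and without untreated resident replicate 1 it was -0.48 (adjusted p = 0.0259).

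Fkbp5, the cochaperone gene often used as a readout of receptor activity, was the flattest of the 5. Untreated resident cells had 844, 1210.2 and 1240.2 normalized reads, and LPS-treated resident cells had 806, 1138 and 935. In untreated BMDM it stood at 1021 and 993 and in LPS-treated BMDM at 1339.8 and 1184. The resident groups overlapped, while both LPS-treated BMDM libraries lay above both untreated ones. Group means spanned 1.31-fold in all, and no neighbours in their order separated. Untreated resident cells and BMDM differed by 0.10 (adjusted p = 0.617), but were called apart with a term for the Y-linked libraries (0.25, adjusted p = 0.0371), without both of them (0.28, adjusted p = 0.0275) and with array weights (0.24, adjusted p = 0.0474). The change with LPS was -0.19 (95% interval -0.54 to 0.17, adjusted p = 0.519) in resident cells and 0.32 (95% interval -0.11 to 0.76, adjusted p = 0.187) in BMDM. Replicate 1 was the lowest library of both resident groups, at 0.689 and 0.778 of the mean of the other replicates. Without untreated resident replicate 1 the responses of the origins differed by -0.69 (adjusted p = 0.0147), against -0.51 (adjusted p = 0.136) with all libraries. LPS-treated resident cells were lower than LPS-treated BMDM by a log2 difference of -0.41 (adjusted p = 0.0639), which passed without untreated resident replicate 1 (-0.41, adjusted p = 0.0154) or LPS-treated resident replicate 2 (-0.54, adjusted p = 0.0237).

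**Figure D2:**
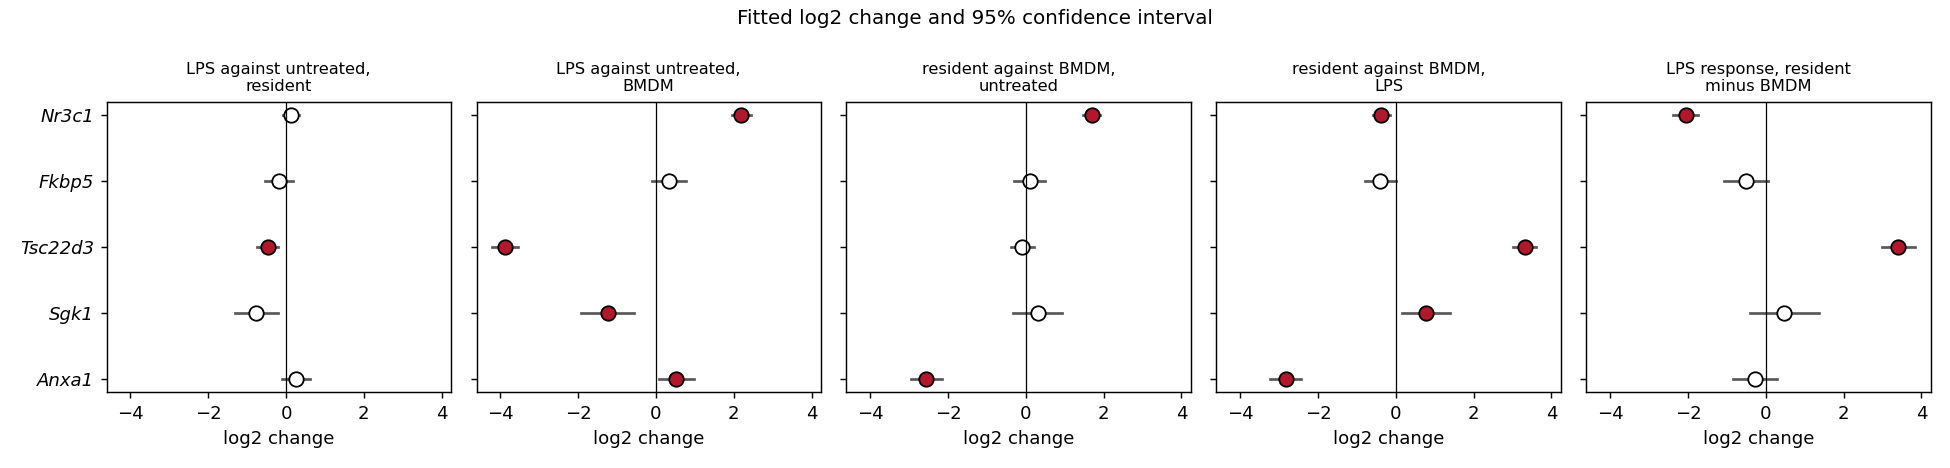
Fitted log2 change of the 5 genes in the 5 comparisons on log2 axes, with 95% confidence intervals as bars and filled points for genes called at an adjusted p under 0.05. Nr3c1 and Tsc22d3 lie on opposite sides of 0 with LPS in BMDM (2.19 and -3.88), and in resident cells they lie at 0.13 (open) and -0.47 (filled).

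Side by side, the receptor gene and its targets moved in different directions. With LPS in BMDM, Nr3c1 rose while Tsc22d3 and Sgk1 fell, Anxa1 rose on the deposited scale but not after either rescaling, and Fkbp5 was not called. Across settings, Nr3c1 stayed called in BMDM with changes from 1.52 to 2.19, Tsc22d3 with changes from -4.49 to -3.72 and Sgk1 with changes from -1.93 to -1.24. On the scale of levels per kb of exon, Tsc22d3 went from 381 to 25.5 in BMDM and from 357 to 258 in resident cells. Nr3c1 went from 268 to 1222 per kb in BMDM and from 867 to 943 in resident cells. Sgk1 went from 1770.4 to 748 in BMDM and from 2244 to 1332 in resident cells, whereas the group means of Fkbp5 lay between 101 and 133.

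**Figure D3:**
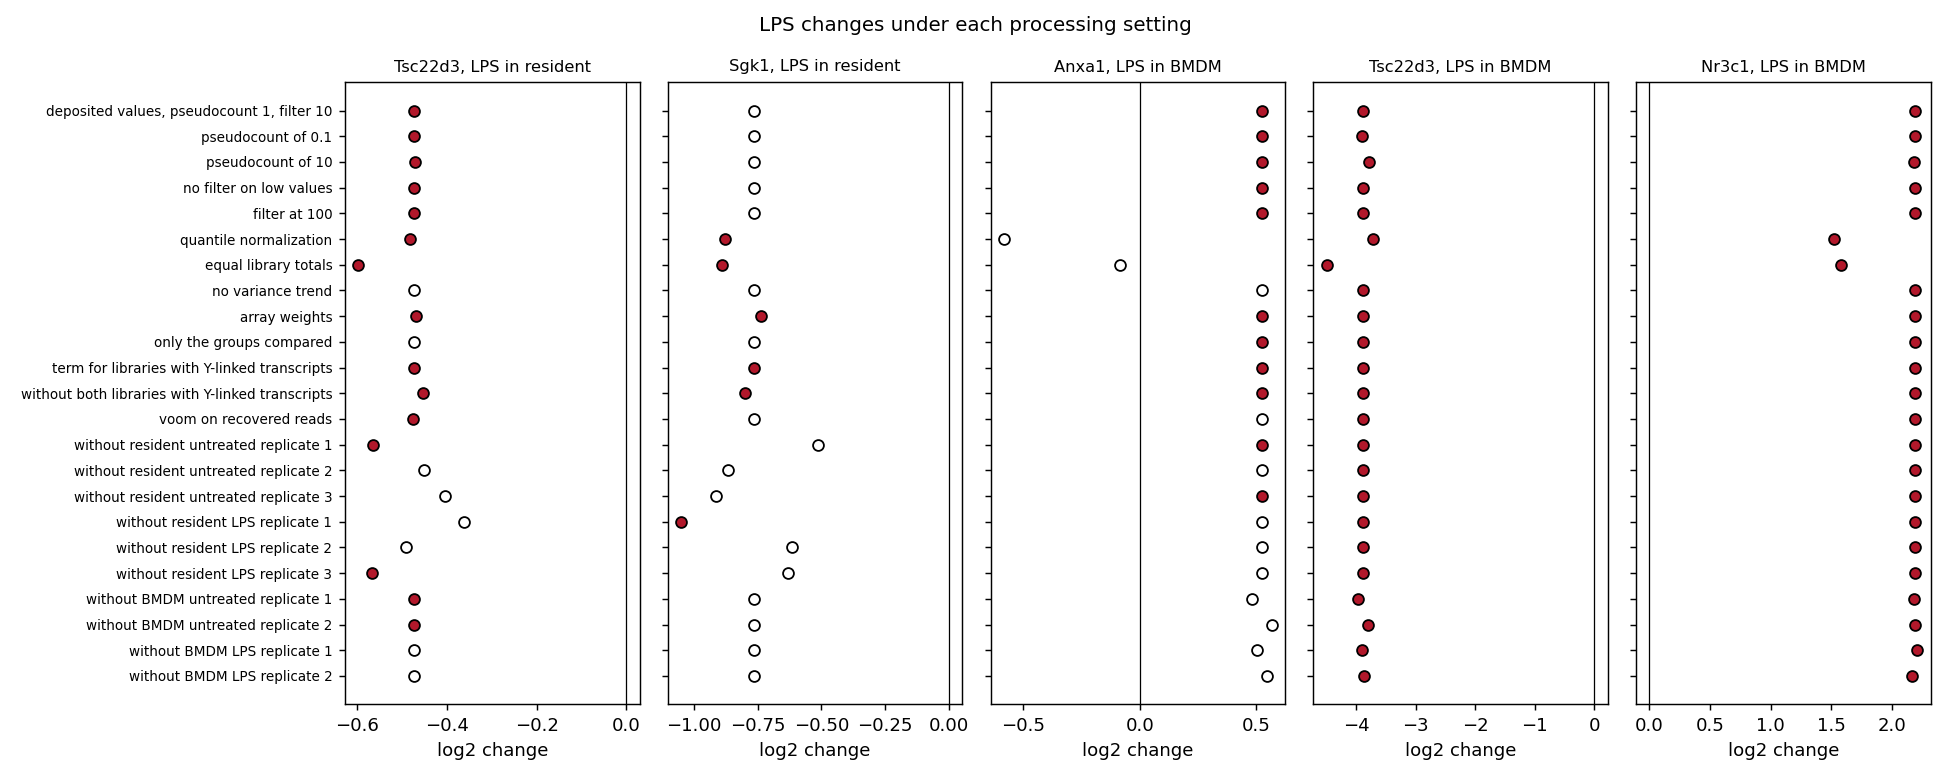
Log2 change with LPS of 3 genes in BMDM and of Tsc22d3 and Sgk1 in resident cells on the deposited values and under each other setting, with filled points where the adjusted p was under 0.05. Nr3c1 and Tsc22d3 in BMDM are filled throughout, Anxa1 in BMDM lies below 0 under both rescalings, and both resident changes are filled under some settings and open under others.

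Genes that work with the receptor were taken from lists written from general knowledge. Among 14 chaperone and cochaperone genes of the receptor complex, 8 rose and 4 fell with LPS in BMDM on the deposited scale (median log2 change 0.40, against -0.04 over all genes), but 2 rose and 8 fell after quantile normalization and 2 rose and 7 fell with equal library totals. Over all genes 57.8% were called in this comparison on the deposited scale, 28.3% higher and 29.5% lower, which is the background for every BMDM list below. Equal totals moved the median of all genes there to -0.64, so the balance of rises and falls in BMDM lists depends on the scaling. Stip1, whose product links HSP70 to HSP90, rose by 1.56 ± 0.08 (adjusted p = 7.33e-08), and Dnaja1, an HSP40 cochaperone, rose by 1.47 ± 0.08 (adjusted p = 1.01e-07). Fkbp4, whose product competes with FKBP5 for the receptor complex, fell by 0.73 ± 0.08 (adjusted p = 3.19e-05). In resident cells 1 rose and 1 fell (beside 7.36% and 5.57% of all genes), Stip1 by 0.41 ± 0.07 (adjusted p = 0.00412) and the phosphatase gene Ppp5c by -0.26 ± 0.06 (adjusted p = 0.0275). Ppp5c lost its call in 6 of the 10 fits that left out 1 library, among them LPS-treated resident replicate 2 (-0.22), untreated replicate 2 (-0.26, adjusted p = 0.0656) and each BMDM library (-0.26, adjusted p from 0.0541 to 0.0581).

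Coregulators, the proteins through which the receptor acts on chromatin, gave 9 rises and 4 falls among 16 genes with LPS in BMDM (13 of 16 called beside 57.8% of all genes, median 0.41), against 4 and 6 after quantile normalization and 1 and 6 with equal totals. Med1, a Mediator subunit that nuclear receptors contact, rose by 0.99 ± 0.09 (adjusted p = 5.27e-06). In resident cells limma called 0 of the 16, beside 12.9% of all genes, with 5 at an unadjusted p under 0.05. Voom on recovered reads also called 0, while array weights called 2, leaving out both Y-linked libraries 4 and the Y-linked term 5. Without untreated resident replicate 1 the count was 2, and without LPS-treated replicate 3 it was 1.

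Of 9 genes for steroid activation, export and related steroid receptors, 7 were tested. Hsd11b1 encodes the enzyme that turns inactive cortisone or 11-dehydrocorticosterone into active hormone inside cells, and it marked the resident libraries. It averaged 611 normalized reads in untreated resident cells and 5.93 in untreated BMDM, a log2 difference of 6.41 ± 0.32 (adjusted p = 4.9e-08). The untreated BMDM mean is itself near the floor of 1. Over the 12 other settings this difference ran from 5.23 to 6.70 and was called in each. With LPS Hsd11b1 averaged 793 in resident cells and 1.85 in BMDM, which is too near the floor for a fold. The gene of the enzyme that supplies its cofactor, H6pd, was lower in untreated resident cells by -1.39 ± 0.09 (adjusted p = 4.65e-07). Abcb1b, which encodes a pump that exports steroids, rose with LPS in both origins, by 0.54 ± 0.09 in resident cells (adjusted p = 0.005) and 1.00 ± 0.11 in BMDM (adjusted p = 2.63e-05). H6pd fell by 0.62 ± 0.10 in BMDM (adjusted p = 0.000431). The neutrophil sums given above move with the Hsd11b1 difference, and their part was not tested.

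A list of 30 other genes known to be induced by glucocorticoids, 29 of them tested, likewise held genes that moved in both directions. With LPS in BMDM 16 rose and 10 fell (beside 28.3% and 29.5% of all genes, median 0.60), against 13 and 9 after quantile normalization and 12 and 11 with equal totals, and in resident cells 8 rose and 3 fell (beside 7.36% and 5.57% of all genes, median 0.13, against 0.002 over all genes). Several of these genes, such as Tnfaip3, are also known as direct targets of NF-kB, which LPS activates. In BMDM the metallothionein gene Mt2 rose by 6.77 ± 0.67 (adjusted p = 1.08e-05) and the lipocalin gene Lcn2 by 5.16 ± 0.20 (adjusted p = 7.35e-09). The chemokine receptor gene Cxcr4 fell by 4.70 ± 0.15 (adjusted p = 2.33e-09), and Angptl4, an inhibitor of lipoprotein lipase, fell by 3.63 ± 0.39 (adjusted p = 1.89e-05). The clock gene Per1, named after its values were seen because it is among the 3 falls in resident cells, fell by 2.05 ± 0.11 in BMDM (adjusted p = 1.15e-07).

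Changes in resident cells reached from -1.06 to 1.47. Tnfaip3, a brake on NF-kB signalling, rose by 1.47 ± 0.15 (adjusted p = 0.000471) and Irak3, a brake on Toll-like receptor signalling, by 1.39 ± 0.07 (adjusted p = 1.68e-05). The 3 falls were Rgs2, a regulator of G protein signalling, by 1.06 ± 0.07 (adjusted p = 5.09e-05), Cxcr4 by 1.06 ± 0.13 (adjusted p = 0.000915) and Per1 by 0.44 ± 0.09 (adjusted p = 0.0132). The response differed between origins for 22 of the 29 genes, being lower in resident cells for 15 and higher for 7, beside 41.8% of all genes (22.8% lower and 19% higher).

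**Figure D4:**
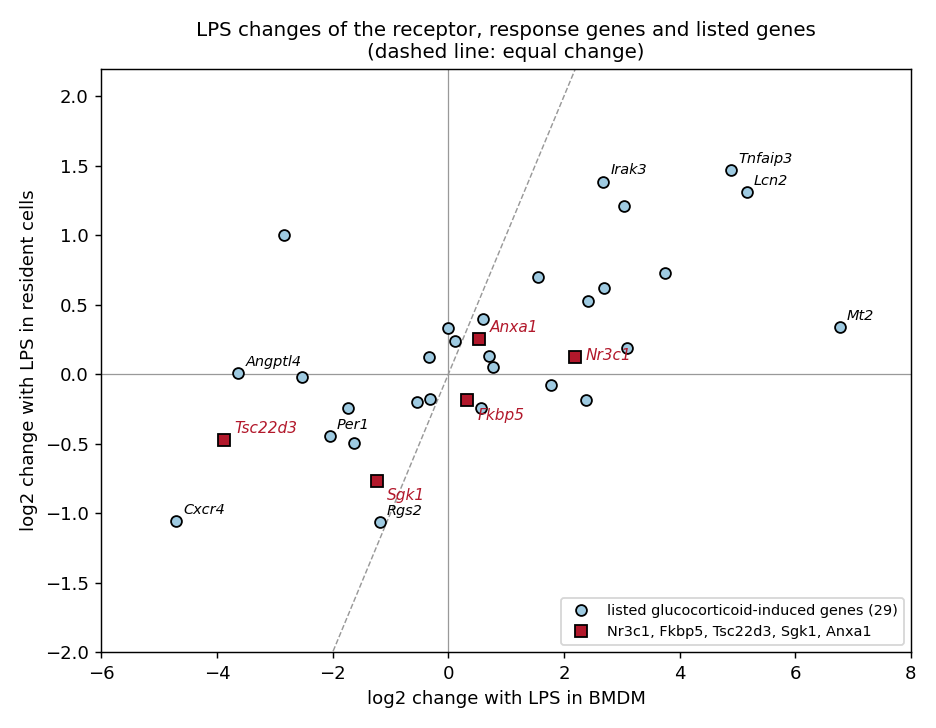
Log2 change with LPS in BMDM (horizontal axis) and in resident cells (vertical axis, drawn at another scale) for the 5 genes in red squares and the 29 tested genes of the glucocorticoid-induced list in blue circles, with a dashed line where both changes are equal. Points run from -4.70 to 6.77 across and from -1.06 to 1.47 upward, and both axes hold genes on either side of 0.

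Of 12 tested annexins, partners and receptors of annexin A1, 9 rose and 1 fell with LPS in BMDM on the deposited scale (beside 28.3% and 29.5% of all genes, median 0.78), against 4 and 4 after quantile normalization and 4 and 2 with equal totals. In resident cells 3 rose, Fpr1, Fpr2 and Anxa3, beside 7.36% of all genes. The formyl peptide receptor genes, whose products bind annexin A1, had the largest rises, whichever scaling was used: Fpr2 by 7.89 ± 0.27 (adjusted p = 3.15e-09) and Fpr1 by 5.80 ± 0.18 (adjusted p = 1.89e-09) in BMDM, from means of 12.8 and 16.9 normalized reads. In resident cells Fpr1 rose by 1.82 ± 0.15 (adjusted p = 0.000125) and Fpr2 by 0.96 ± 0.22 (adjusted p = 0.0194). The Fpr2 call was lost without untreated resident replicate 2 (0.92, adjusted p = 0.0562) and without LPS-treated resident replicate 1 (0.84, adjusted p = 0.0528) or 2 (1.01, adjusted p = 0.0505). Without that last library the resident count was 1 in place of 3. Before LPS, resident cells already held more of both receptors, by 7.44 ± 0.25 for Fpr2 and 6.51 ± 0.17 for Fpr1 (adjusted p = 2.71e-09 and 6.83e-10), while S100a10, the partner of annexin A2, was lower by -1.31 ± 0.17 (adjusted p = 6.91e-05). Neutrophils are known to express Fpr1 and Fpr2. The 15 neutrophil markers were all called higher in untreated resident cells, beside 39.2% of all genes, and their part in this difference was not tested.

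Around Sgk1, 16 of 17 listed kinases, mTOR complex 2 subunits and substrates were tested, and 7 rose and 4 fell with LPS in BMDM (beside 28.3% and 29.5% of all genes), against 5 and 5 after quantile normalization and 5 and 10 with equal totals. Sgk3, a paralog of Sgk1, rose by 2.29 ± 0.08 (adjusted p = 2.4e-09) where Sgk1 fell. Prr5l, which encodes a protein associated with mTOR complex 2, rose by 2.74 ± 0.11 (adjusted p = 1.34e-08), and Foxo3, a transcription factor that SGK1 phosphorylates, fell by 1.97 ± 0.13 (adjusted p = 5.22e-07). In resident cells 2 rose, Sgk3 by 0.28 ± 0.06 (adjusted p = 0.0155) and Mtor by 0.28 ± 0.07 (adjusted p = 0.0272), beside 7.36% of all genes. With 1 library left out this count ran from 0, without LPS-treated resident replicate 2, to 5, without untreated resident replicate 1. Among the other settings it ran from 0, with equal totals or only the groups compared, to 6, without both Y-linked libraries. Nedd4, a ubiquitin ligase gene, was higher in untreated resident cells by 5.71 ± 0.29 (adjusted p = 5.33e-08).

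The paralogs of Tsc22d3 and Fkbp5 were called in 1 of 3 and 2 of 13 cases with LPS in BMDM, beside 57.8% of all genes. Of the other 3 TSC22 genes, Tsc22d2 rose with LPS in BMDM by 0.39 ± 0.15 (adjusted p = 0.0388) where Tsc22d3 fell, but this value was -0.22 with equal library totals and the call was lost without either LPS-treated resident replicate 2 or 3 or any BMDM library (0.32 to 0.47, adjusted p from 0.0522 to 0.189). In resident cells Tsc22d4 fell by 0.30 ± 0.07 (adjusted p = 0.0213), a call lost without untreated replicate 2 or 3 or LPS-treated replicate 2 (adjusted p from 0.0524 to 0.0790). All 3 were higher in untreated resident cells than in BMDM, beside 39.2% of all genes, with Tsc22d2 higher by 1.53 ± 0.13 (adjusted p = 3.09e-06). Among 13 tested FKBP genes, 1 rose and 1 fell with LPS in BMDM (median -0.18), against 1 and 4 after quantile normalization and 1 and 9 with equal totals, with Fkbp9, an endoplasmic reticulum isomerase gene, up by 1.24 ± 0.14 (adjusted p = 3.81e-05) and Fkbp4 as given above. With LPS in resident cells Fkbp15 was the only one called, beside 12.9% of all genes (-0.41 ± 0.10, adjusted p = 0.0237). That call was lost without untreated replicate 3 or LPS-treated replicate 2 or 3 (adjusted p from 0.0659 to 0.0893).

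Between the origins without LPS, 21 of the 29 induced genes were higher in resident cells and 3 were lower (median 1.33, against 0.08 over all genes), whereas 39.2% of all genes were called higher. Cd163, the scavenger receptor gene by whose protein the resident cells are labelled, was higher by 7.21 ± 0.27 (adjusted p = 6.41e-09), and its level of 5282 to 10740.4 normalized reads in untreated resident libraries against 41.9 to 53.9 in BMDM goes with the labels. Lcn2, which is also a neutrophil granule gene and one of the 15 neutrophil markers, was higher by 9.33 ± 0.18 (adjusted p = 1.71e-10). Stab1, a scavenger receptor gene of tissue macrophages, was lower by -4.27 ± 0.29 (adjusted p = 5.4e-07), and Rgs2 was lower by -1.60 ± 0.08 (adjusted p = 5.68e-08). With LPS, 18 of the 29 were higher in resident cells and 7 were lower, beside 36.7% and 34.5% of all genes, with Cd163 at 8.34 ± 0.27 (adjusted p = 5.06e-09), Angptl4 at 5.61 ± 0.35 (adjusted p = 3.5e-07) and Mt2 at -5.25 ± 0.61 (adjusted p = 2.87e-05). Apart from neutrophil genes, all 9 tested erythroid and all 9 B-lineage markers were higher in resident libraries in both comparisons, and the part of these cells in the counts of this list was not tested.

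Genes whose levels followed each member most closely were found by Pearson's r of log2 values over the 10 libraries, which mostly follows the 4 group means and carries no test. Nr3c1 was followed most closely by Tmcc3 (r = 0.999), Src (0.998) and Ddhd1 (0.996), all lowest in untreated BMDM and highest in LPS-treated BMDM. Src, a tyrosine kinase gene, went from 691 to 15049 normalized reads there. Tsc22d3 was matched by Rrp12 (0.994), Irf2bp2 (0.993) and Xndc1 (0.993), of which Irf2bp2, a transcriptional repressor gene, went from 4466 to 954 in BMDM and from 4442 to 3389.9 in resident cells. Sgk1 was matched by Eef1d (0.983), Cyb5r1 (0.983) and Gzf1 (0.980), and Anxa1 by Eftud2 (0.996), Acad9 (0.995) and Dnajc12 (0.995). Fkbp5, with the smallest span, had the loosest matches, Mcf2l (0.934), Agpat5 (0.875) and Dopey1 (0.862).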

How the data were processed

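RNA was sequenced in 10 libraries. The deposited values (unit: signal) are reads per gene after the authors' scaling of each library by a single factor, with values under 1 set to 1. This was checked on the table, where each library has a step (0.892 to 1.35). Among values above the floor and up to 1000 steps, 100% were whole multiples of it within 0.02, and higher values were not checked. HISAT 0.1.7 and mm10 are named in the submitters' processing notes. Which annotation, trimming and counting program were used is not given in the sources used here. Division by the step gave the recovered reads, which assumes that 1 step is 1 read.

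Groups come from the labels. Log2 of the value plus a pseudocount of 1 was fitted in limma 3.58.1 (R 4.3.3), with a variance trend and 1 linear model of the 4 groups (6 residual degrees of freedom). The filter asked for 10 normalized reads in 2 libraries, which 13755 genes passed and 54 did not. Tests are 2-sided, with Benjamini-Hochberg adjustment in each of 5 contrasts. SE is that of the fitted log2 change. Folds are ratios of group means. Rose, fell, higher and lower refer to called genes (adjusted p under 0.05), except where a value is given as not called. For an uncalled value the 95% interval of limma is given. The script was tested on simulated data.

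The 5 genes and the gene lists were chosen with earlier results of these data known. Per list and contrast, at most 2 called rises and 2 called falls with a mean of at least 20 could be named, with Per1 as the exception, and 1 gene that the rule allows is not reported here. Lists are described by counts and medians, with no set test. Levels per kb use the exon bases of the GENCODE annotation of GRCm38, and no exon of another gene overlaps those of Fkbp5, Tsc22d3, Sgk1 and Anxa1. Promoter sequences are from RefSeq.

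Other settings were pseudocounts of 0.1 and 10, no filter and a filter at 100, quantile normalization, equal library totals, no trend, array weights, only the groups compared, a term for the libraries with Y-linked transcripts, leaving both out, and leaving out each library in turn. A further setting, voom on recovered reads, was chosen after seeing the data. Python 3.11.15 with matplotlib 3.10.9 drew the figures.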

Additional observations from a re-analysis of the deposited data

Results flagged for a closer look

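The results below stand out because the LPS response of resident cells differed from that of BMDM in limma's test of the difference itself (adjusted p under 0.05). Values are log2, resident minus BMDM, over all 10 libraries. Among the 5 genes these were Nr3c1 at -2.06 and Tsc22d3 at 3.41. The response of Nr3c1 was lower in resident cells because it rose in BMDM, and that of Tsc22d3 was higher because its fall was smaller. Resident libraries also carried the markers of other marrow cells given above. The part of these cells in the differences of responses was not tested.

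Among other named genes the response was lower in resident cells for the chaperone genes Stip1 (-1.15) and Dnaja1 (-1.34), the coactivator gene Med1 (-0.75) and the exporter gene Abcb1b (-0.46). In the glucocorticoid-induced list it was lower for Mt2 (-6.43), Lcn2 (-3.85), Tnfaip3 (-3.42) and Irak3 (-1.29). Among annexin partners and receptors it was lower for Fpr2 (-6.93), Fpr1 (-3.97) and S100a10 (-0.68), and among other relatives for Prr5l (-2.46), Sgk3 (-2.01) and Fkbp9 (-1.06). Of the 11 other settings that fit this comparison, Med1 was called in 10, Abcb1b in 9 and S100a10 in 7. Med1 ran from -0.75 to -0.27 there, with a limma adjusted p of up to 0.124.

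A higher response in resident cells, each time of genes with a fitted change below 0 in BMDM, was measured for Fkbp4 (0.53) and H6pd (0.51). It was also measured for Cxcr4 (3.65), Angptl4 (3.64), Cd163 (1.14), Stab1 (1.49), Per1 (1.61) and Foxo3 (1.73). Cd163 was called in 7 of the 11 other settings, where it ran from 0.63 to 1.60, with a limma adjusted p of up to 0.474. The smallest of these margins were those of S100a10 (adjusted p = 0.0490) and Cd163 (adjusted p = 0.0374), which passed in 3 and 2 of the 10 fits that left out 1 library. Abcb1b passed in 5 of them, H6pd and Stab1 in 8 each.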

How the results depend on the processing

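Nr3c1, Tsc22d3 and Sgk1 in BMDM with LPS, Nr3c1 and Anxa1 between untreated origins, Tsc22d3 and Anxa1 between LPS-treated origins, and the differences of responses of Nr3c1 and Tsc22d3 were called in the same direction under every setting tried and without each library. Other values follow as log2. With LPS in resident cells, quantile normalization gave Nr3c1 -0.0063 and Sgk1 -0.88, equal totals gave Sgk1 -0.89, array weights -0.74 and the Y-linked term -0.76. Without both Y-linked libraries Nr3c1 was 0.24 and Sgk1 -0.80. Tsc22d3 was -0.47 without a trend (adjusted p = 0.0588) and with only the groups compared (adjusted p = 0.106). With 1 library left out Nr3c1 ran from 0.067 to 0.23, Tsc22d3 from -0.57 to -0.36 and Sgk1 from -1.05 to -0.51. Genes called in resident cells numbered 1779, 529 with only the groups compared, 3449 with the Y-linked term, 2893 without both Y-linked libraries, and 970 (without LPS-treated replicate 2) to 2290 (without untreated replicate 1) with 1 library left out. With LPS in BMDM Anxa1 was -0.58 after quantile normalization, -0.086 with equal totals, 0.53 without a trend and with voom, and 0.48 to 0.57 with 1 library left out. Fkbp5 was -0.29 with equal totals and 0.32, then called, with array weights, only the groups compared, the Y-linked term and without both Y-linked libraries. Between untreated origins Sgk1 was -0.11 after quantile normalization, Fkbp5 -0.059 with equal totals, 0.24 with array weights, 0.25 with the Y-linked term and 0.28 without both Y-linked libraries (the last 3 called), and Tsc22d3 0.0050 with the Y-linked term. Between LPS-treated origins Nr3c1 was -0.053 after quantile normalization and -0.051 with equal totals, Sgk1 0.77 without a trend and 0.49 to 0.92 with 1 library left out. Fkbp5 was -0.34 with array weights, -0.41 with only the groups compared, -0.26 with the Y-linked term, -0.29 without both Y-linked libraries and -0.54 to -0.29 with 1 library left out. For the difference of responses Sgk1 was 1.05 after quantile normalization, 0.96 with equal totals, 0.48 with the Y-linked term and 0.44 without both Y-linked libraries. Anxa1 was 0.68 after quantile normalization, 0.22 with equal totals, -0.37 with array weights, -0.44 without both Y-linked libraries and -0.48 to -0.13 with 1 library left out. Fkbp5 was -0.58 with array weights, -0.51 with the Y-linked term, -0.57 without both Y-linked libraries and -0.69 to -0.39 with 1 library left out. The cause was not tested. Of the glucocorticoid-induced list, 11 genes were called in resident cells, 7 with only the groups compared, 16 with the Y-linked term and 10 to 14 with 1 library left out. Among other named genes Tsc22d2 in BMDM (-0.22) and the difference of responses of Abcb1b (0.026) turned with equal totals, and that of S100a10 (0.12) after quantile normalization.

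Equal totals moved the median change of all genes to -0.12 with LPS in resident cells, -0.64 in BMDM, 0.35 between LPS-treated origins and 0.48 for the difference. The share of called genes that were higher went from 56.9% to 27.1%, 49.0% to 21.6%, 51.5% to 68.3% and 45.5% to 75.4%. Quantile normalization took it from 54.6% to 41.5% between untreated origins and to 56.9% for the difference, and only the groups compared took it to 68.6% in resident cells. A count test on reads had been planned and was not run, because the deposited values are scaled reads and not counts. Voom on the recovered reads was run in its place. No paired analysis was possible because the labels give groups no shared replicate numbers. With 2 BMDM libraries per group, leaving 1 out assumes that the lone library varies like the other groups.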
